A study of Caenorhabditis elegans with 4 samples.

Results

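The right arm of chromosome V of Caenorhabditis elegans was examined in a ChIP-seq study of SWD-3 in embryos. Its members are the peaks of the series-wide list that lie on V with a midpoint beyond base 15690000 in WormBase WS220 coordinates, which makes 1067 of the 9630 peaks of that list (11.1%) and 49.7% of the 2147 peaks of V. Position alone fixed which peaks are members, but members and comparisons were chosen with earlier results of these data known. The arm so defined is 5.23 Mb long and runs to 20919539, the largest coordinate of any peak on V.

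All material was wild-type strain N2, grown at 20 °C and collected as embryos of mixed stages from a population of hermaphrodites and males, with no treatment and no mutant. The labels name 4 libraries: 2 ChIP libraries made with a rabbit polyclonal antibody to SWD-3, and 2 libraries of input DNA, the chromatin taken before antibody was added. Peak lists of both ChIP replicates and of the series were used, and reads of the input were not analysed here. Peaks from whole embryos pool all cell types and stages, and without input values SWD-3 binding cannot be told apart from places that yield peaks with any antibody.

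SWD-3 takes its name from a subunit of the yeast COMPASS complex; its human relative is WDR5, built of WD40 repeats, which helps to assemble the enzymes methylating lysine 4 of histone H3, a mark found at the promoters of transcribed genes. The chromosomes of the worm have gene-rich centres and arms that hold more repeats, more histone H3 lysine 9 methylation and more contact with the nuclear envelope. The right arm of V also carries the meiotic pairing centre of that chromosome, the region where the zinc-finger protein ZIM-2 binds and from which homologous chromosomes pair and synapse in the germ line.

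The members were a mixture of very wide domains and short peaks, with most of the covered length in the former. Of the 1067 peaks, 253 were wider than 1500 bp (23.7%, 95% Wilson interval 21.3 to 26.4), against 9.28% of the whole list. These wide domains had a median width of 3784 bp and covered 1.31 Mb, which was 77.2% of the length covered by peaks in the arm and 25% of the arm itself. The 814 narrow peaks had a median width of 345 bp and covered 387 kb, or 7.4% of the arm. All members together covered 1.70 Mb, 32.4% of the arm and 24.6% of the length covered by the whole list. Widths ran from 146 to 23536 bp without a break at the 1500 bp limit: the widest narrow peaks measured 1499 bp, and the 2 shortest domains 1511 and 1514 bp. At the inner limit of the arm, the last peak left out lay at 15674715 to 15675205 and the first included at 15731305 to 15732621.

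The same stretch held few peaks in the individual ChIP libraries. Replicate 1 had 85 peaks there, covering 56.4 kb (1.08% of the arm), and replicate 2 had 117, covering 79.8 kb (1.53%). Median widths were 406 and 515 bp, and 5 peaks in each list exceeded 1500 bp. So the series list covered a share of the arm many times that of either replicate, with most of the difference in the wide domains.

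The domains were densest between 17 and 18 Mb, and the part of the arm before it was sparser. Counted by bases, series peaks covered 9.24% of the arm up to 16000000, 21.5% of the next Mb, 66.6% of the Mb from 17000001 to 18000000, and then 29.4%, 28.3% and 22.8% of the last 3 intervals. The Mb from 17000001 held 95 of the 253 wide domains. At a finer scale, 6 of the 53 bins of 100 kb were more than 80% covered, and they were neighbours, from 16990001 to 17590000. In those 600 kb, 137 series peaks, 72 of them wide, covered 532 kb, which was 31.3% of the covered length in 11.5% of the arm. Outside them 25.2% of the arm was covered; the highest bin there, 19390001 to 19490000, reached 67.7%, and 14 bins were under 10%. The limits of 80% and 10% were set after the profile was seen.

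Replicate coverage had another profile. Its median per 100 kb bin was 0.499% in replicate 1 and 0.988% in replicate 2, and 13 and 12 bins held none. In the 600 kb block replicate 1 had 12 peaks and replicate 2 had 18. Both lists had their highest bin within that block, at 15.9% and 14.4%, and the next highest bins were only 3.16% and 5.41%. That bin holds the region of repeated low series peaks described further on.

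**Figure D1:**
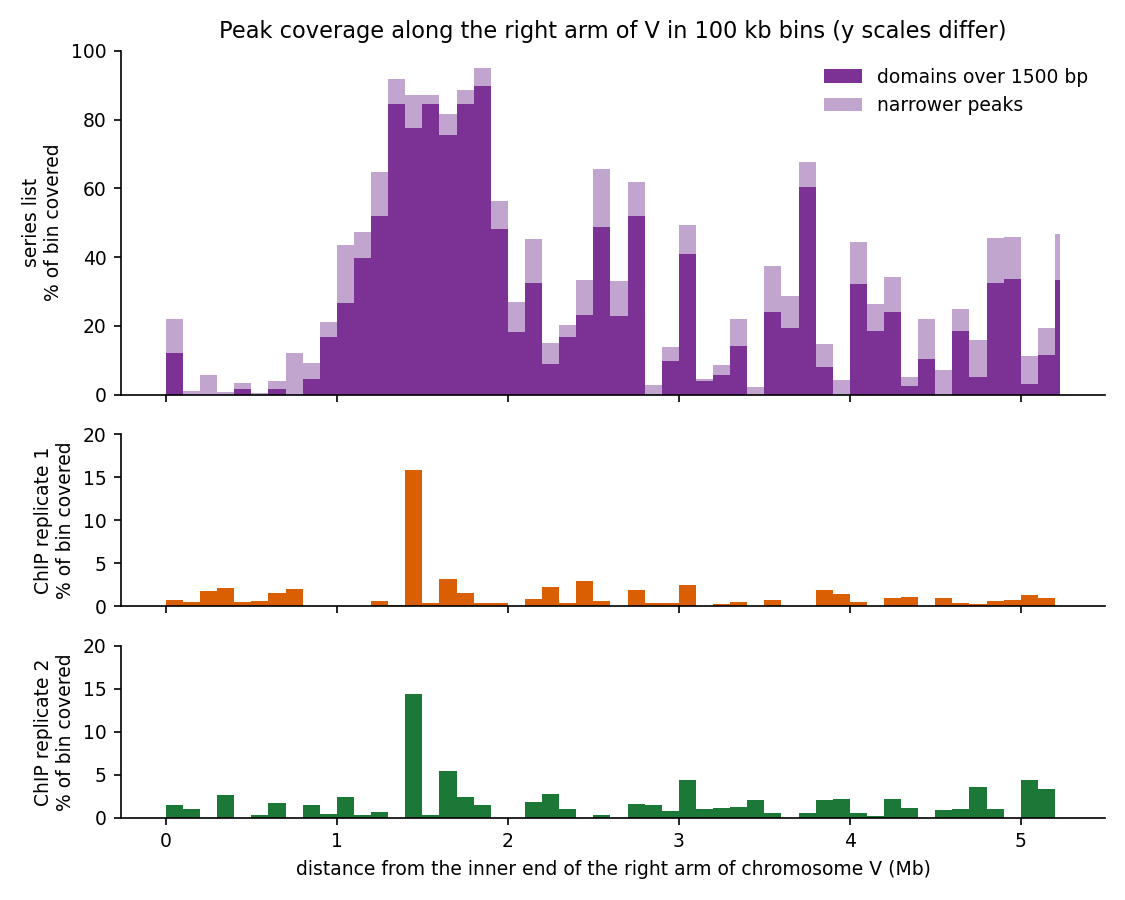
Percent of each 100 kb bin covered by peaks, against distance in Mb from the inner end of the right arm of V, for the series list (wide domains dark, narrower peaks light) and for each ChIP replicate. Series coverage exceeds 80% in 6 neighbouring bins, while a single bin stands out in the replicates, at 15.9% and 14.4%.

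Neighbouring series peaks were closely spaced. The median gap was 437.5 bp, and 562 of 1066 gaps (52.7%) were shorter than 500 bp, with a minimum of 44 bp. Between 2 wide domains the median gap was 224 bp (95 gaps), between a wide and a narrow peak 294 bp (316 gaps), and between 2 narrow peaks 625 bp (655 gaps). The count of peaks therefore depends on how short gaps are treated. Joining peaks less than 500 bp apart left 505 stretches that covered 34.5% of the arm, and the longest, 17002225 to 17067930, joined 12 peaks over 65.7 kb. Joining those less than 2000 bp apart left 252, the longest running from 17389846 to 17648374 with 57 peaks over 259 kb. In the replicates, with far fewer peaks, the median gaps were 36759 and 15943 bp. Close spacing was shared with some other arms. Median series gaps were 475 bp on the left arm of II, 547 bp on the right arm of I and 589 bp on the left arm of III. The median over the other arms was 1435 bp, and the longest was 7679 bp.

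Long stretches without a series peak also occurred. The widest gap ran from 16112255 to 16203788 (91.5 kb) and held the midpoint of no replicate peak; a replicate 2 peak at its edge reached into it. The next, 20078946 to 20146119 (67.2 kb), contained no peak of either replicate. The third, 16041159 to 16106281 (65.1 kb), held the midpoint of 1 peak in each replicate. The remaining 2 of the 5 widest were 64.4 and 58.3 kb long and held no midpoint of a replicate peak.

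Wide domains ranked high in the series list. Each deposited peak has 1 score, the authors' own value on a scale that the files do not name, and it is used here only to rank peaks within a list. The median score of the wide domains was 30.6, at percentile 89.1 of the whole list, against 6.5 and percentile 40.3 for the narrow peaks of the arm. Of the wide domains 208 (82.2%) scored within the top 25% of the whole list, compared with 91 narrow peaks (11.2%). Outside the arm 63.7% of 641 wide and 21.4% of 7922 narrow peaks did, so wide domains ranked high there too. Of all 1067 members 28% were in that top 25%, and their median percentile was 52.8. Score rose with width across the 1067 peaks (Spearman's rho = 0.75, a description across peaks of 1 list, in which neighbours share reads and a wider peak has more bases from which a score can come). The coefficient was 0.49 among the wide domains alone, 0.56 among the narrow peaks and 0.50 over the 8563 peaks elsewhere. Wide domains elsewhere (641 peaks) had a median percentile of 80.

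**Figure D2:**
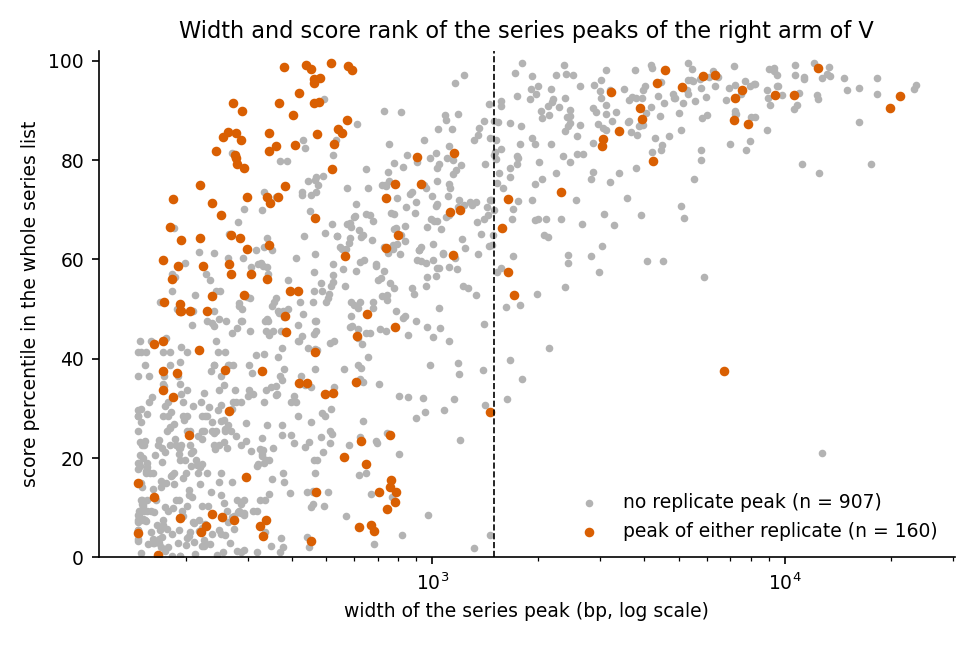
Score percentile in the whole series list against width in bp (log scale) for the 1067 series peaks of the right arm of V, with peaks that overlap a peak of either replicate coloured and the 1500 bp limit dashed. Among members within the top 25% of the whole list by score, 39 of 91 narrow peaks (42.9%) have a replicate overlap. Of the wide domains so ranked, 21 of 208 (10.1%) have one, so most peaks of both kinds have none.

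Few members recurred in the single libraries. With an overlap of at least 1 bp, 82 of the 1067 members (7.69%, interval 6.23 to 9.44) overlapped a replicate 1 peak, against 18.6% of all series peaks. For replicate 2 the count was 128 (12%, interval 10.2 to 14.1), against 41.9%. Both replicates had a peak at 50 members (4.69%, against 15.2%), and at least 1 replicate did at 160 (15%, interval 13 to 17.3, against 45.3%). The remaining 907 members, 85% of them, had no counterpart. Reads may be shared between the series list and the replicate lists, so an overlap is not independent evidence for a site. Library depth is unknown, and the lists do not say whether an unlisted place lacked signal or lacked reads.

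Width divided these overlaps unevenly between the replicates. Among the wide domains 27 of 253 (10.7%, interval 7.44 to 15.1) overlapped a peak of either replicate, against 20.2% of wide series peaks in the whole list. Replicate 1 accounted for 20 of these, replicate 2 for 9, and 2 were found in both. Among the narrow peaks 133 of 814 (16.3%, interval 14 to 19) had an overlap, against 47.9% of narrow series peaks in the whole list, and here replicate 1 accounted for 62 and replicate 2 for 119. The whole list includes the chromosome centres. In the other 11 arms alone the shares were nearer, 20.1% of 561 wide and 35.1% of 5086 narrow peaks. By replicate, the shares of wide and narrow members were 7.91% and 7.62% for replicate 1, and 3.56% and 14.6% for replicate 2. The lower share of wide domains thus came from replicate 2 and was not seen with replicate 1 alone. Series peaks outside the arm had the same pattern: 19.7% and 20% for replicate 1, and 10.3% and 48.5% for replicate 2. The share of members with a peak of either replicate did not rise steadily with width. It was 22.3% for peaks over 400 and up to 800 bp, 5.22% for those over 800 and up to 1500 bp, 5.05% up to 3000 bp and 13.1% up to 6000 bp. The first of these classes includes narrow peaks of the block around the first-ranked replicate peaks, described further on. These classes were counted in the arm only, so whether this order is particular to it was not tested. A wide domain can meet a 1 bp overlap with a peak that fills little of it. Replicate 1 peaks filled 0.758% of the bases of the wide domains and replicate 2 peaks 0.323%.

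High-ranked members also had fewer replicate counterparts than high-ranked peaks of the whole list. Among members within that top 25%, 39 of 91 narrow ones (42.9%, interval 33.2 to 53.1) overlapped a replicate peak, against 88.7% of narrow peaks in the top 25% of the whole list. Of the wide domains so ranked 21 of 208 did (10.1%, interval 6.7 to 14.9), against 18.8%. Wide domains with and without an overlap had median percentiles of 90.5 and 89.1. Narrow peaks with and without had 58.7 and 36.5. These intervals cover counting error only, and neighbouring peaks are not independent, so no test was made.

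Narrow peaks near a wide domain seldom had a replicate counterpart, and those far from one had it more often. Within 1000 bp of a wide domain 13 of 240 narrow peaks (5.42%, interval 3.19 to 9.05) overlapped a peak of either replicate. The share was 10.6% of 246 at 1000 to 5000 bp, 21.7% of 184 at 5000 to 20000 bp, and 37.5% of 144 (interval 30 to 45.6) at 20000 bp or more. Peaks within 1000 bp were somewhat wider (medians 427.5 and 317.5 bp for the nearest and farthest) and ranked higher, at median percentiles of 46.4 and 35; the part of width and rank in these shares was not tested. The same order appeared in the other 11 arms, at a higher level: 8.54% of 714 narrow peaks within 1000 bp and 52.7% of 2541 at 20000 bp or more.

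**Figure D3:**
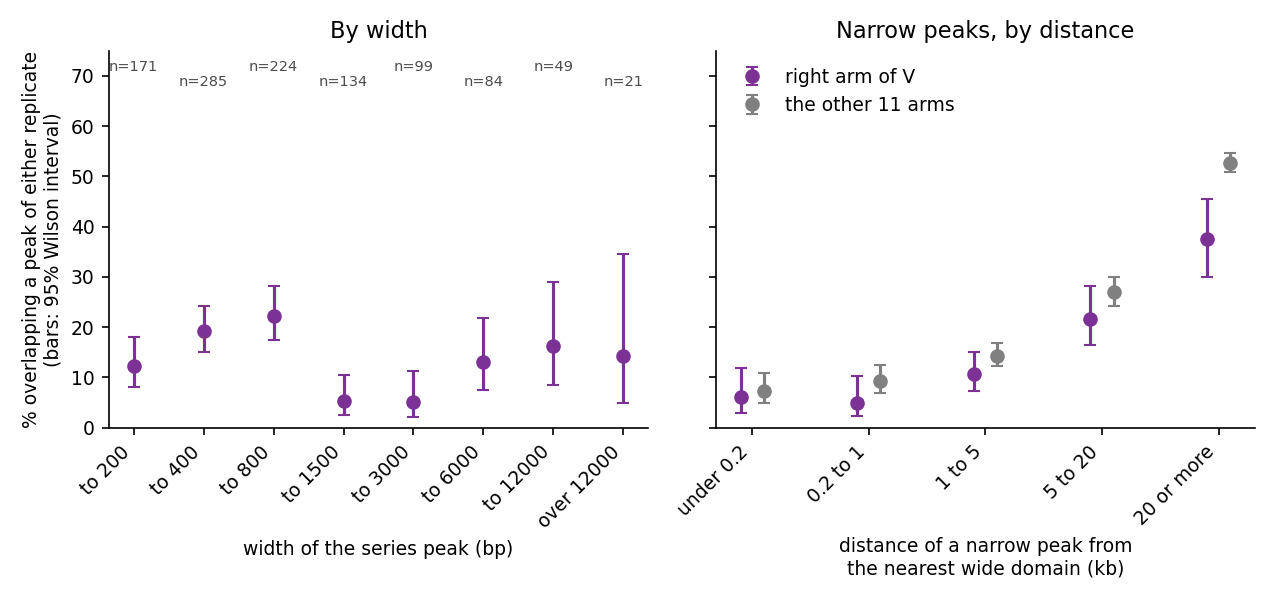
Percent of series peaks overlapping a peak of either ChIP replicate, with 95% Wilson intervals, by peak width in the right arm of V (left, n above each class) and by distance of narrow peaks from the nearest wide domain (right, with the other 11 arms in grey). In the arm the share is 5.42% within 1 kb of a wide domain and 37.5% at 20 kb or more.

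The 10 widest members measured 14987 to 23536 bp and ranked between 336 and 2006 of 9630. Only 2 of them overlapped a replicate peak. The fourth widest, at 17518835 to 17538749 (19915 bp, series score 32.72), was met by 1 replicate 1 peak of 232 bp and by 2 replicate 2 peaks of 890 bp together, all small beside the domain. The third, at 17175188 to 17196454 (21267 bp, score 38.4), was met by a replicate 1 peak of 321 bp near its end. Of the others, 2 of the widest were themselves neighbours, 17564093 to 17582336 (18244 bp, score 52.41) and 17582994 to 17599251 (16258 bp, score 43.32). The only other wide domain with a peak in both replicates lay at 18231243 to 18237087 (5845 bp, score 54.27). There a replicate 1 peak of 298 bp (rank 256 of 2698) and a replicate 2 peak of 284 bp (rank 2983 of 4580) covered almost the same bases.

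Of the 10 highest-scoring members, which ranked 44 to 111 in the series list, 7 were wide domains and none of these had a replicate peak. The first was a domain of 12126 bp at 17628280 to 17640405 (score 103.68), and the second a domain of 1802 bp at 18414985 to 18416786 (score 101.75). The 3 narrow peaks among them all had a peak in both replicates. They lay at 16965544 to 16966058 (score 97.73; replicate 1 rank 1090, replicate 2 rank 157), at 18967497 to 18967935 (score 88.52; ranks 1126 and 271) and at 19643748 to 19644323 (score 81.15; ranks 720 and 223). All 3 ranked higher in replicate 2 than in replicate 1, also as a share of each list.

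Seen from the replicates, most peaks of the arm had a series peak, and usually a narrow one. Of the 85 replicate 1 peaks 66 overlapped a series peak (77.6%, interval 67.7 to 85.2, against 65.2% of the whole replicate 1 list), and of the 117 replicate 2 peaks 111 did (94.9%, interval 89.3 to 97.6, against 83%). Series peaks covered 32.4% of this arm and 3.45% to 19.9% of the other arms, so a 1 bp overlap is easier to meet here. The part of coverage in these shares was not tested. Narrow series peaks took part in 46 of the replicate 1 overlaps and 101 of the replicate 2 overlaps, and wide domains in 21 and 11. Counted by bases, 17.6% of the length of replicate 1 peaks and 5.3% of that of replicate 2 peaks lay in wide domains, which made up 25% of the arm. The block described below holds 27.1% and 18.1% of these replicate bases, mostly outside wide domains, and so lowers both shares. Between the replicates, 37 of 85 replicate 1 peaks had a replicate 2 counterpart (43.5%, interval 33.5 to 54.1, against 62.5% of the whole list), and in the other direction 37 of 117 were shared (31.6%, interval 23.9 to 40.5, against 34.9%). The shared peaks had a median percentile of 75 in replicate 1 and 78.6 in replicate 2.

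The first-ranked peak of the arm in each replicate lay in a block where the series list had small pieces. Replicate 1 had 4 peaks between 17115349 and 17133261, 15.3 kb together or 27.1% of all bases it covered in the arm; replicate 2 also had 4, with 14.4 kb or 18.1%. The main peak ran from 17119902 to 17127840 in replicate 1 (7939 bp, score 3163.81, rank 1 of 2698) and from 17119874 to 17126698 in replicate 2 (6825 bp, score 3100, rank 6 of 4580). Next to it lay peaks of 5372 bp in replicate 1 (rank 29) and 5462 bp in replicate 2 (rank 730).

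In that block the series list had 14 narrow peaks in a row, from 17118514 to 17131927. They were 193 to 789 bp wide, scored 2.46 to 6.13 and ranked 6009 to 9116 of 9630. Their starts were spaced by a median of 956 bp, and 7 of the 13 spacings lay between 850 and 1100 bp, limits set after the values were seen. The row ended just before a wide domain of 12458 bp at 17132219 to 17144676 (score 74.32, rank 135), and the nearest wide domain on the other side, 17112997 to 17115047 (2051 bp), scored 17.48 (rank 2297). Chromosome V is known to carry tandem copies of the 5S ribosomal RNA and spliced leader SL1 genes; the RefSeq gene table lists 15 rrn-4 and 12 sls-1 genes there, which follow each other without interruption among the rRNA and snRNA genes of V. That table is of assembly WBcel235 and the peaks are of WS220, so whether the row lies on these genes was not tested.

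**Figure D4:**
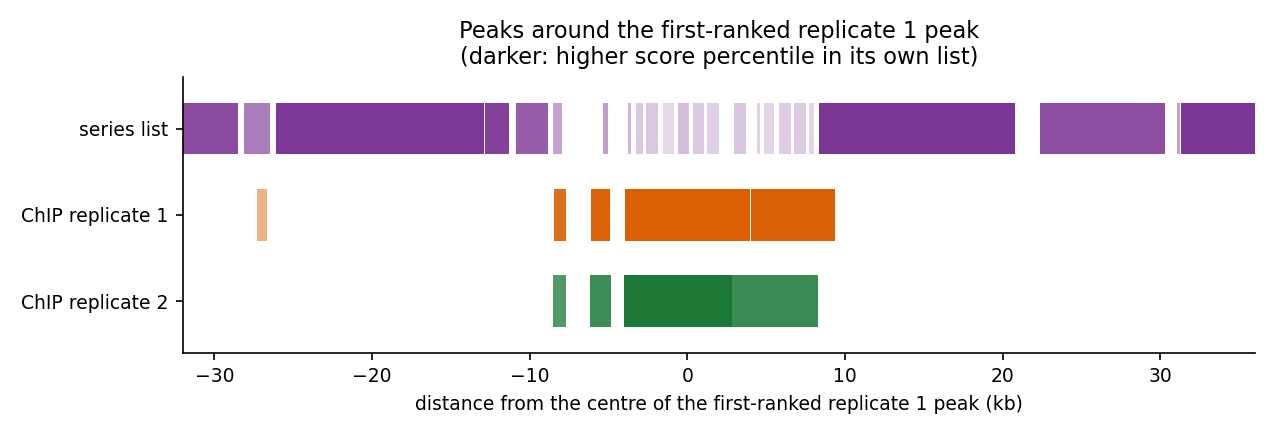
Peaks of the 3 lists around the first-ranked replicate 1 peak, against distance in kb from its centre, shaded darker for a higher score percentile within their own list. The replicates have long, high-ranked peaks where the series list has 14 short, low-ranked ones, and wide series domains lie on both sides.

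The row changes some of the counts above. The block holds 15 narrow members, all with a peak in both replicates. Its limits are the outer ends of the replicate peaks, which fill most of it, so these overlaps were largely set by that choice. Outside it, 33 of 799 narrow peaks (4.13%, interval 2.96 to 5.74) were found in both, and their median percentile was 72.2, against 37.4 for all 48 in the arm. The share with a peak of either replicate was 14.8% outside it.

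Other leading replicate peaks were of 2 kinds. The second of replicate 1, at 17308542 to 17311700 (3159 bp, score 2845.04, rank 7), matched a replicate 2 peak of 3200 bp with rank 1397 and 3 series peaks that scored at most 2.56. The fourth, at 16040073 to 16041163 (score 1166.85, rank 52), matched a replicate 2 peak of rank 732 and a single series peak with a score of 8.01. In contrast, the fifth, at 17951124 to 17951823 (700 bp, score 951.32, rank 76), matched the second of replicate 2 (871 bp, score 2182.05, rank 52) and a series peak with a score of 67.4 (rank 175). The remaining peaks among the first 5 of replicate 2 were alike, each with a single narrow series peak: 16965441 to 16966153 (rank 157; series score 97.73), 18723392 to 18724133 (rank 159; 46.89) and 20845305 to 20846013 (rank 185; 69.35). Replicate 1 ranked these at 1090, 293 and 176.

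Set beside the other 11 arms, taken as the outer 25% of each chromosome, the right arm of V stood at one end in several measures. Its series coverage of 32.4% was the highest of 12, the others ranging from 3.45% to 19.9%, with the right arm of I next, and it was still 25.2% outside the 600 kb block. The share of wide peaks was also highest, 23.7% against 3.53% to 14.2%, and 30 of its peaks exceeded 10000 bp, against at most 5 in any other arm. The share of series peaks with a replicate counterpart was lowest, 15% against 16.6% to 73.2%, with the left arm of II nearest at 16.6% (interval 14.1 to 19.3), whose interval overlapped. In peaks per Mb the order differed: 204 on the right arm of V, 254 on the right arm of I and 204 on the left arm of II. The replicate lists were sparsest on the 2 arms of V, with 16.3 and 22.4 peaks per Mb on the right and 17 and 23.1 on the left for replicates 1 and 2. One arm has no replicate, so these ranks describe the lists and were not tested.

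The left arm of V, of the same length, had 564 series peaks covering 6.47% of it, of which 44 (7.8%, interval 5.86 to 10.3) were wide, while its replicate coverage of 0.836% and 1.49% was close to that of the right arm. The centre of V had 516 peaks covering 2.91%, and 71.3% of them (interval 67.3 to 75.1) had a replicate counterpart. The 2 arms of V thus differed 5.01-fold in series coverage, 1.29-fold in replicate 1 and 1.03-fold in replicate 2. The block around the first-ranked replicate peaks held 27.1% of the replicate 1 and 18.1% of the replicate 2 bases in the right arm. In both replicates this exceeds the lead of the right arm over the left. From textbook knowledge, the pairing centres lie on the right arms of I and V and on the left arms of II, III, IV and X. Series coverage was higher in the arm with the pairing centre on 6 of 6 chromosomes, by 1.8-fold on IV to 5.01-fold on V, whereas in each replicate it was higher on 3 of 6. In both replicates V was among these 3, with that block included. This comparison was made after the values were seen. No measure of pairing-centre protein binding, repeats or mappability was used here, and their part in the difference was not tested.

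**Figure D5:**
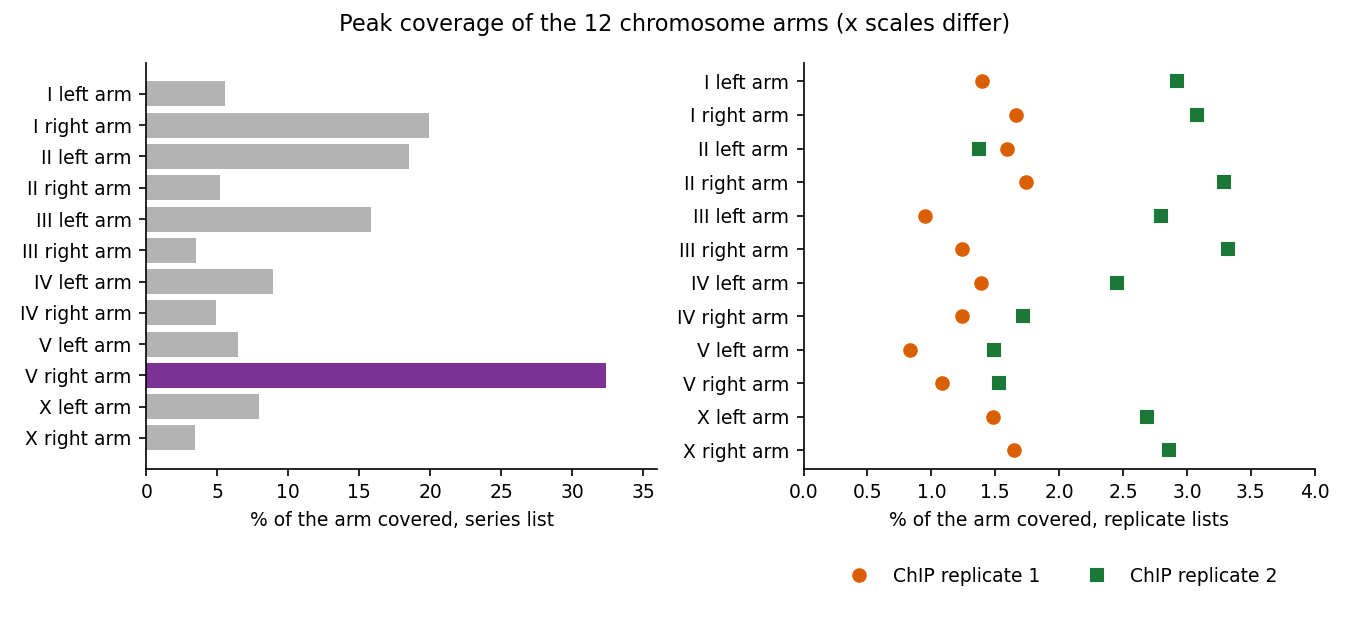
Percent of each of the 12 chromosome arms covered by peaks of the series list (left, bars) and of the ChIP replicates (right, points; a narrower scale). The right arm of V is at 32.4% in the series list, and at 1.08% and 1.53% in replicates 1 and 2.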

How the data were processed

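The authors deposited 3 peak lists of intervals with 1 score per peak; per the file headers they are in WormBase WS220 coordinates, and their source columns name MACS v2 for the series list and MACS for the replicates. The submitters' processing notes name BWA and ce10. No source used here gives thresholds, the control or any pooling of libraries. Depth is unknown, since the lists hold no reads.

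Peaks were assigned by midpoint, and covered length counted in bases. An overlap was at least 1 bp. Percentiles rank the score within its whole list. Shares have 95% Wilson intervals, for counting error only. With 1 list per library and dependent neighbouring peaks, no p-value is given. Named regions are the 10 widest and 10 highest-scoring members, the 5 highest-scoring peaks of each replicate, the 5 widest gaps and peaks next to the limits; the row of low peaks, the left arm of II and the wide domain shared by both replicates were chosen after their values were seen. Members and comparisons were chosen with earlier results of these data known. Python 3.11.15, numpy 2.4.6, pandas 2.3.3, scipy 1.17.1 and matplotlib 3.10.9 were used, and overlap, gap and joining functions were tested on simulated data. Sequences, genes in peaks and the antigen were not compared, as no WS220 genome, annotation or protein table was used.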

Additional observations from a re-analysis of the deposited data

How the results depend on the processing

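No paired analysis was possible because the results come from no test and the input libraries had no lists here. Of 49 alternatives over 12 results, 21 stayed within the interval of the reported value (counts within 1.5 times). For shares of length, which have no interval above, even 76.2% and 77.8% against 77.2% counted as moved, so the tally is no measure of the size of the shifts. In the higher-scoring 50% of the series list the arm held 562 peaks, 44% of them wide, covering 28.6% of the arm with a median gap of 802 bp, and 18.3% had a replicate counterpart. With domains over 1000 bp, wide peaks made up 32% of the members and 83.5% of the covered length; with domains over 3000 bp, 14.4% and 65%. Starting the arm at 15 or 16 Mb gave a covered share of 29.5% or 33.9%, with 76.2% or 77.8% of it in wide domains; joining peaks under 500 bp apart gave 91.3%.

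With either replicate left out, the share of members with a counterpart was 7.69% to 12%, that of wide domains 3.56% to 7.91% and that of narrow peaks 7.62% to 14.6%. With replicate 1 alone, wide domains (7.91%) were no lower than narrow peaks (7.62%). At a 50% reciprocal overlap, which peaks differing over 2-fold in width cannot meet, the 3 shares were 7.69%, 0% and 10.1%, and with midpoints within 200 bp 10.2%, 1.19% and 13%. Replicate 1 and replicate 2 peaks with a series peak fell to 28.2% and 64.1% at 50% reciprocal overlap, and to 48.2% and 80.3% with midpoints within 200 bp. Leaving out the strongest replicate region was added after seeing the data and gave 13.7%, 10.3% and 14.8%. The lists hold no reads or input values, so neither depth nor background at single sites can be given.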
